A study of Mus musculus with 13 samples.

Results

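The genes of the p53 pathway and the inhibitors of the cell cycle were followed in mouse embryonic stem (ES) cells through 10 genes: Trp53, Mdm2, Cdkn1a, Ccng1, Bbc3, Bax, Cdkn2a, Cdkn2b, Cdkn1b and Rb1. They were chosen by symbol and matched by Ensembl identifier. The 10 genes are among 26797 genes measured in replicate libraries and among 49671 genes counted in a joint table of libraries without replicates. All 10 passed the filter on low values, as did 17297 genes in all. The study sequenced polyadenylated RNA of ES cells grown on gelatin with leukemia inhibitory factor. Untreated WT cells of the line AinV15 and untreated Dnmt1-null cells, a line homozygous for the null allele labelled C, had 3 replicate libraries each. The other RNA came from AinV15 cells that carried a doxycycline-inducible fusion and 4 guide RNAs against the promoter of IAP retrotransposons. The fusion was dCas9-OGA, a Cas9 without nuclease activity joined to the enzyme that removes O-GlcNAc from proteins, or dCas9-OGA-D242A, in which a substitution impairs that enzyme. These cells were selected with G418 and given doxycycline, and the WT cells were not. Each fusion had 1 library, and the joint table adds 1 further library of WT and 1 of Dnmt1-null cells that are tied to none of the replicates.

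AinV15 carries the tetracycline transactivator at the Rosa26 locus, and the Dnmt1-null cells are a separate ES line. Genotype and line therefore cannot be told apart. Nothing in the labels says that the replicates were separate cultures, so p-values measure only the spread among these libraries. The replicate libraries held between 26846275 and 37112247 reads on genes, and their values are a normalized signal, that is, reads divided by a scaled library size. The libraries without replicates held 25097983 counts on genes for WT, 18693531 for Dnmt1-null, 24955180 for dCas9-OGA and 24828078 for dCas9-OGA-D242A. These counts are given as cpm, counts scaled to a common library total with TMM factors. The 2 tables were normalized separately, so levels are compared within a table.

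The p53 protein, encoded by Trp53, is a transcription factor that is activated by DNA damage and other stress. It induces genes that stop the cell cycle or start apoptosis, and it induces Mdm2, whose product marks p53 for degradation. Cyclin-dependent kinase (CDK) inhibitors restrain the phosphorylation of the retinoblastoma protein, which holds E2F factors in check. The Arf protein made from Cdkn2a protects p53 from Mdm2. ES cells cycle rapidly with a short G1 phase, and CDK inhibitors are typically low in them.

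Dnmt1, which encodes the maintenance DNA methyltransferase, was read first as a check of the labels. Its signal was 308, 352 and 347 in the WT libraries and 73.6, 75.4 and 77.6 in the Dnmt1-null libraries. Every library labelled Dnmt1-null was below every WT library, with a log2 fold change of -2.14. In the joint table Dnmt1 had 460 cpm in WT, 61.9 in Dnmt1-null, 549 with dCas9-OGA and 376 with dCas9-OGA-D242A. The reads that remained in the mutant are counted over the whole gene and do not show which exons they cover. Among markers of ES cells, Pou5f1, Nanog, Zfp42, Esrrb, Klf4, Dppa5a and Tdgf1 were detected in all 6 replicate libraries. Their summed signal lay between 5161 and 5558 in Dnmt1-null and between 5353 and 5501 in WT. Sox2, also on that list, had no value in the replicate libraries.

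In Dnmt1-null cells 4 CDK inhibitors fell together, while Trp53 rose slightly and the p53 targets among the 10 genes fell or showed no call. Of the 10 genes, 8 were lower and 1 higher at an adjusted p at or under 0.05 (limma with Benjamini-Hochberg adjustment over all genes tested). That is 9 of 10, against 71.2% of all genes tested. By direction, 8 of 10 were lower where 35.4% of all genes were, and 1 of 10 was higher where 35.8% were. In 9 of the 10 the libraries of the groups did not overlap, as was the case for 73.3% of all genes. A call in this comparison is thus common, and size separates the members more than the call does. The 3 members called at least 2-fold lower were Cdkn2a, Cdkn2b and Cdkn1b, where 9.41% of all genes were. The median log2 fold change was -0.42 over the 10 genes and 0.01 over all genes.

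**Figure D1:**
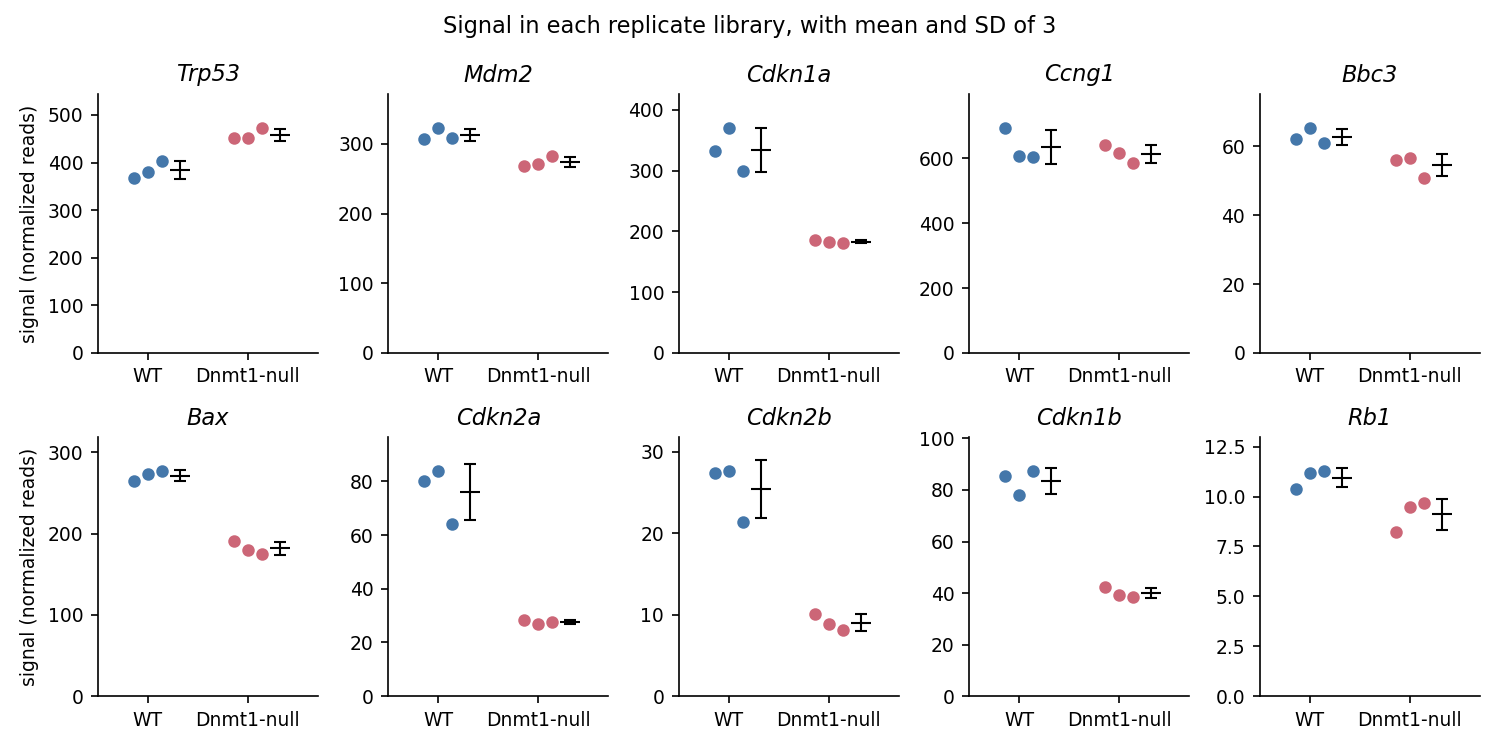
Signal (normalized reads, linear axes from 0) of the 10 genes in the 3 WT and 3 Dnmt1-null replicate libraries, 1 point per library, with the mean and SD of each group beside the points. Cdkn2a sits between 64.3 and 83.9 in WT and between 26.8 and 28.4 in Dnmt1-null, while the points of Ccng1 overlap.

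Trp53 had a signal of 367, 379 and 404 in WT and of 451, 451 and 473 in Dnmt1-null. All mutant libraries were above all WT libraries, by a small margin. The log2 fold change was 0.26 (SE 0.05, limma adjusted p = 8.86e-05). Trp53 lies on chromosome 11, where the median log2 fold change of 1346 tested genes was 0.35. Relative to its chromosome Trp53 was at -0.09, so its direction turns with that reference. The interval of Trp53 from the fitted SE, 0.16 to 0.36, included that median, so Trp53 was not distinguishable from it. Mdm2, which encodes the ubiquitin ligase of p53, had a signal of 308, 323 and 308 in WT and of 269, 271 and 283 in Dnmt1-null. The groups did not overlap, and Mdm2 fell by 0.19 on the log2 scale (SE 0.05, limma adjusted p = 0.00113). Within a library, Mdm2 signal per Trp53 signal was 0.837, 0.852 and 0.763 in WT and 0.596, 0.600 and 0.598 in Dnmt1-null. This ratio needs no scaling between libraries, and its values did not overlap between the groups. In the joint table it went the other way, from 0.151 in WT to 0.172 in Dnmt1-null.

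Among the p53 targets, Cdkn1a, which encodes the CDK inhibitor p21, had a signal of 332, 370 and 298 in WT. It had 186, 183 and 180 in Dnmt1-null, so that the highest mutant library was well below the lowest WT library. The mean was 334 ± 36.0 in WT and 183 ± 2.65 in Dnmt1-null (SD, n = 3 each), or 54.9% of WT. Cdkn1a fell by 0.86 on the log2 scale (SE 0.06, limma adjusted p = 3.74e-12). In bulk RNA, fewer cells that express a gene and less RNA per cell cannot be told apart. Cdkn1a signal per Trp53 signal was 0.904, 0.976 and 0.739 in WT and 0.411, 0.406 and 0.381 in Dnmt1-null, a larger gap than for Mdm2. In the joint table this ratio also went the other way, from 0.101 to 0.144. Cdkn1a shares 273 exon bases with AC167363.2 on the opposite strand.

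Bax, a pore-forming protein of apoptosis, had a signal of 264, 273 and 277 in WT and of 190, 180 and 175 in Dnmt1-null. The groups were far apart relative to their spread, and Bax fell by 0.58 on the log2 scale (SE 0.05, limma adjusted p = 1.7e-10). Of its exon bases, 192 are shared with Gm45808 on the same strand, and reads there cannot be assigned to either gene with certainty. Bbc3, which encodes the BH3-only protein Puma, had a signal of 62.0, 65.4 and 61.0 in WT and of 56.0, 56.7 and 50.9 in Dnmt1-null. Its groups did not overlap, but the gap was small, with a log2 fold change of -0.20 (SE 0.06, limma adjusted p = 0.0023). Ccng1, which encodes cyclin G1, had a signal of 694, 606 and 605 in WT and of 640, 616 and 584 in Dnmt1-null. The groups overlapped, and the log2 fold change of -0.05 (SE 0.06, limma adjusted p = 0.466) was not called. Without WT replicate 1 it was 0.02. Ccng1 also lies on chromosome 11, and relative to that chromosome its log2 fold change was -0.40.

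The CDK inhibitors had the largest changes among the 10 genes. Cdkn2a, which encodes p16Ink4a and p19Arf from separate first exons, had a signal of 80.0, 83.9 and 64.3 in WT and of 28.4, 26.8 and 27.7 in Dnmt1-null. Every mutant library was below every WT library, at 36.3% of the WT mean. The log2 fold change was -1.44 (SE 0.07, limma adjusted p = 9.58e-15). Counts per gene do not separate the p16Ink4a transcript from the p19Arf transcript. Cdkn2b, the neighbouring gene for p15Ink4b, had a signal of 27.4, 27.6 and 21.3 in WT and of 10.1, 8.84 and 8.07 in Dnmt1-null. It behaved like Cdkn2a, at 35.4% of the WT mean and a log2 fold change of -1.45 (SE 0.09, limma adjusted p = 1.46e-12). Cdkn2a signal per Cdkn2b signal was 2.92, 3.04 and 3.01 in WT and 2.81, 3.03 and 3.43 in Dnmt1-null. These ratios overlapped, so the fall of both genes left their ratio within the spread of the libraries.

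Cdkn2a and Cdkn2b lie 11645 bases apart on chromosome 4, at chr4:89274471-89294653 and chr4:89306299-89311039 on the minus strand (GRCm38). The nearest protein-coding gene before them with a value, Mtap, was chosen for its position. It had a signal of 71.8, 71.8 and 73.4 in WT and of 87.8 and 88.6 in Dnmt1-null replicates 1 and 2. Mtap was higher in all mutant libraries, replicate 3 the most, with a log2 fold change of 0.35 (SE 0.06, limma adjusted p = 4.92e-06), while both inhibitor genes beside it were lower. The nearest on the other side, Dmrta1, was at or under 0.312 in all 6 libraries.

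Cdkn1b, which encodes the inhibitor p27, had a signal of 85.4, 78.0 and 87.4 in WT and of 42.4, 39.1 and 38.7 in Dnmt1-null. The groups were widely separated, and Cdkn1b fell by 1.05 on the log2 scale (SE 0.06, limma adjusted p = 4.15e-14). Rb1, which encodes the retinoblastoma protein, had a signal of 10.4, 11.2 and 11.3 in WT and of 8.22, 9.47 and 9.65 in Dnmt1-null. Its groups did not overlap, but the difference was near their spread, with a log2 fold change of -0.25 (SE 0.09, limma adjusted p = 0.0136). The call rests on Dnmt1-null replicate 1, without which the log2 fold change was -0.18 and the adjusted p was 0.0935. Rb1 shares 488 exon bases with Rcbtb2 and 408 with Lpar6, both on the opposite strand. The strand setting of the counting is not given in the sources used here, which bears on Cdkn1a as well.

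With the 4 members among them, 7 CDK inhibitors were tested, of which 5 were called lower and none higher, with a median log2 fold change of -1.05. Of the other 3, only Cdkn1c was called. This imprinted gene for p57 had the largest fall of the list, from 19.4 ± 1.28 to 4.69 ± 0.36 (log2 fold change -1.94, limma adjusted p = 1.99e-15). Cdkn2c and Cdkn2d were not called, with log2 fold changes of -0.15 and -0.16. Of 17 cyclins and CDKs, 11 were higher and 4 lower, with a median of 0.47, where 35.8% of all genes were higher and 35.4% lower. Ccne1, the G1/S cyclin E1, rose from 81.2 ± 1.14 to 214 ± 7.99, and Ccnb2 and Cdc25a rose by log2 fold changes of 0.86 and 0.68. Of the D-type cyclins, partners of the kinases that p16Ink4a inhibits, Ccnd2 and Ccnd1 fell, with log2 fold changes of -2.77 and -1.47, while Ccnd3 rose (0.52). The kinase Cdk6 fell (-0.93), as did Cdk4 (-0.53), named here after its value was seen as the last of the 4 that were lower.

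Among 22 genes of p53 and its regulators, 13 were higher and 3 lower, with a median of 0.26. Atr and Ppm1d, a kinase and a phosphatase of the damage response, rose by 0.80 and 0.75, as did Trp63 by 0.77 from a level under 1. Trp73, a relative of p53, fell (log2 fold change -1.05), as did the acetyltransferase gene Kat5 (-0.46) and Mdm2 (-0.19). Among 49 p53 target genes, 15 were higher and 27 lower, with a median of -0.20. The death receptor gene Fas (log2 fold change -2.39) and Gdf15 (-1.57) were among those that fell. Sfn, Xpc and Ppm1d rose by 1.06, 0.86 and 0.75. The list held changes in both directions. Of all genes tested, 35.8% were higher and 35.4% lower, with a median of 0.01.

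Of 13 genes of the Rb family and E2F, 3 were higher, 4 lower and 6 not called, with a median of -0.05. Tfdp1, E2f5 and E2f4 rose by 0.52, 0.47 and 0.31, while Rbl2, a relative of Rb1, fell (-0.74), as did Tfdp2 (-0.38) and Rb1 (-0.25). Of 23 replication and mitosis genes tested, 12 were higher and 7 lower, with a median of 0.15. Aurkb, Cenpf and Cdc6 rose by 1.08, 0.90 and 0.90, and Tyms, Mcm2 and Mcm6 fell, with log2 fold changes of -0.51, -0.41 and -0.27. Of 13 genes of the Bcl2 family tested, to which Bax and Bbc3 belong, 3 were higher and 7 lower, with a median of -0.20. The proapoptotic Bcl2l11 rose by 1.05 and Bid by 0.31, as did the antiapoptotic Mcl1 by 0.29. Bcl2, Hrk and Bmf fell, with log2 fold changes of -1.26, -1.14 and -0.70.

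Markers of fibroblasts were lower in the Dnmt1-null replicates as well. All 10 of 10 fibroblast markers were called lower in Dnmt1-null, with a median log2 fold change of -2.21. Their summed signal was 2664, 3084 and 2190 in WT and 649, 663 and 629 in Dnmt1-null. Vim was the most abundant, at 847 ± 128 in WT and 346 ± 0.593 in Dnmt1-null. None of the 10 was at 0 in all libraries, and Lum was the lowest, at 0.525 in WT. Within WT, replicate 2 had the highest and replicate 3 the lowest summed signal, and Cdkn1a, Cdkn2a and Cdkn2b were ordered likewise, while Cdkn1b was lowest in replicate 2. Acta2 and Dcn, with log2 fold changes of -3.98 and -2.96, fell more than any of the 10 genes. Whether fibroblasts were present, and their part in the fall of the CDK inhibitors, was not tested.

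Other marker lists moved as well. Of 8 primitive endoderm markers 7 were higher (median 0.92), and their summed signal, led by Lama1, was 372 to 392 in WT and 668 to 707 in Dnmt1-null. All 7 trophoblast markers tested were higher (median 1.08), and with Krt8 the most abundant their sum was 107 to 111 in WT and 247 to 253 in Dnmt1-null. Of 8 markers of 2-cell-like cells 7 were lower (median -0.94), at sums of 583 to 618 and 238 to 270, with Gm5662 the most abundant. Of 5 neural and mesoderm markers tested, 2 were lower and 1 higher (median -0.14), with Nes the most abundant. Their sum was 110 to 125 in WT and 51.7 to 53.4 in Dnmt1-null. Sox1 and Tubb3, also on that list, had no value in these libraries. Of 7 ES cell markers 1 was higher and 3 lower (median -0.07), and Dppa5a was the most abundant. The part of these lists in the members' differences was not tested.

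Removal of O-GlcNAc at IAP promoters is the question of the comparison between dCas9-OGA and dCas9-OGA-D242A. Each fusion has 1 library, so these differences carry no p-value. Called here means at least 2-fold apart on the log2(cpm + 0.5) scale among genes with at least 100 counts summed, and 95% intervals cover counting error only. Of the 10 genes, 2 were called, Cdkn2a and Cdkn2b, both lower in dCas9-OGA, where 12.1% of 12722 genes were called. Of all 10, 3 were higher and 7 lower, and the median log2 ratio was -0.39, against 0.03 over all genes.

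**Figure D2:**
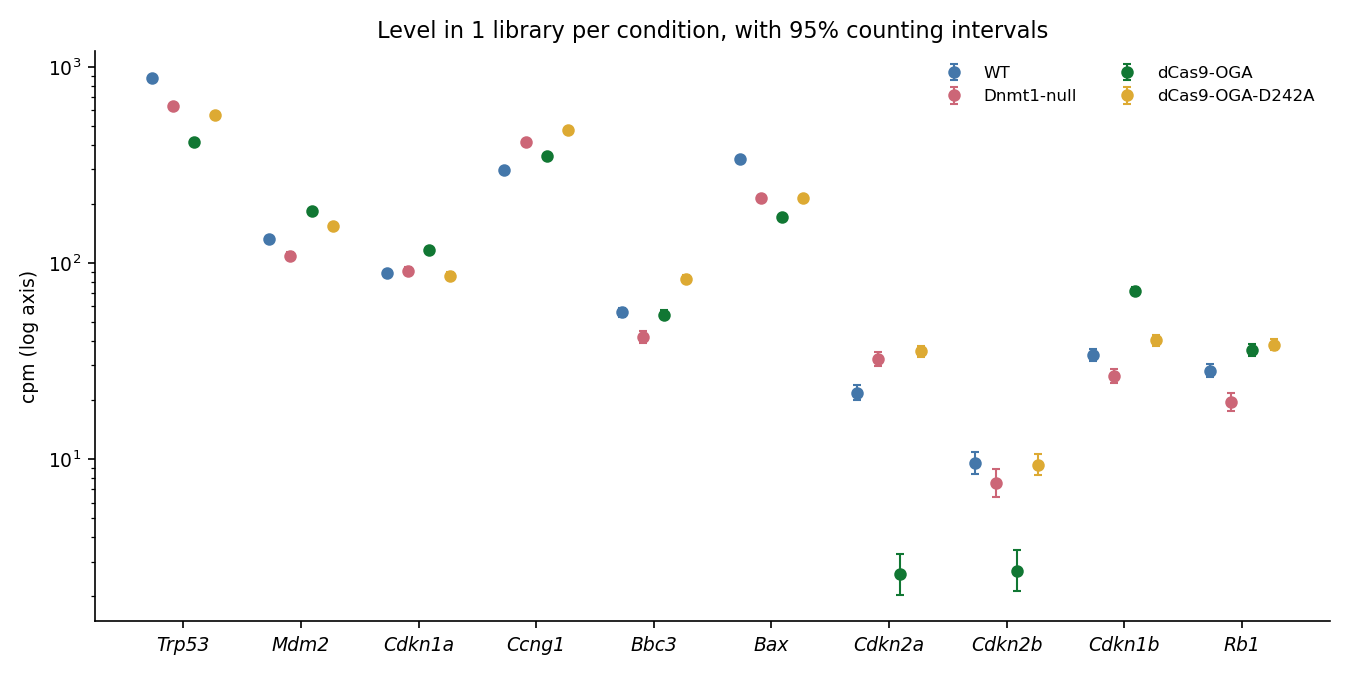
Level in cpm (log axis) of the 10 genes in 1 library each of WT, Dnmt1-null, dCas9-OGA and dCas9-OGA-D242A, with Wilson 95% intervals of the count. The dCas9-OGA library has 2.58 cpm of Cdkn2a and 2.70 cpm of Cdkn2b, below the other 3 libraries for both genes.

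Cdkn2a had 541 counts in WT, 615 in Dnmt1-null, 64 with dCas9-OGA and 879 with dCas9-OGA-D242A. These are 21.8 cpm (Wilson 95% interval 20.1 to 23.7), 32.4 (29.9 to 35.0), 2.58 (2.02 to 3.29) and 35.4 (33.1 to 37.8). The dCas9-OGA library stood apart from the others, 13.7-fold below dCas9-OGA-D242A in cpm. The log2 ratio, for which 0.5 cpm is added to each level, was -3.54, at or below which lay 0.134% of all genes compared. Cdkn2b had 236 counts in WT, 143 in Dnmt1-null, 67 with dCas9-OGA and 233 with dCas9-OGA-D242A. In cpm these are 9.52, 7.52, 2.70 (2.13 to 3.43) and 9.37 (8.25 to 10.7). Again dCas9-OGA was the lowest library, 3.47-fold below dCas9-OGA-D242A in cpm, with a log2 ratio of -1.63 after the addition of 0.5 cpm. Cdkn2a counts per Cdkn2b count were 2.29 in WT, 4.30 in Dnmt1-null, 0.955 with dCas9-OGA and 3.77 with dCas9-OGA-D242A. Within the dCas9-OGA library the fall was thus larger for Cdkn2a than for Cdkn2b. Mtap, chosen for its position beside them, had 134 cpm in WT, 155 in Dnmt1-null, 79.6 with dCas9-OGA and 154 with dCas9-OGA-D242A. Its log2 ratio between the fusions was -0.95.

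Cdkn1b differed in the other direction. It had 839 counts in WT, 504 in Dnmt1-null, 1785 with dCas9-OGA and 1002 with dCas9-OGA-D242A, or 33.8, 26.5, 71.9 and 40.3 cpm. Its dCas9-OGA level was the highest of the 4 and its log2 ratio to dCas9-OGA-D242A was 0.83, short of the 2-fold limit. Cdkn1a had 116 cpm in dCas9-OGA and between 85.9 and 91.4 cpm in the other 3 libraries. Its log2 ratio between the fusions was 0.43, with a counting interval of 0.35 to 0.51. Cdkn1c, outside the 10 genes, had 70.7 cpm with dCas9-OGA and 18.8 with the D242A form. Of 7 CDK inhibitors compared, Cdkn1c was up by 2-fold or more, Cdkn2a and Cdkn2b were down by as much, and the median was 0.12.

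Trp53 had 880 cpm in WT, 635 in Dnmt1-null, 415 with dCas9-OGA and 566 with dCas9-OGA-D242A. Its level was highest in WT, and its log2 ratio between the fusions was -0.45. The median of 1077 genes of chromosome 11 in this comparison was -0.43, and relative to it Trp53 was at -0.01. Ccng1, on the same chromosome, had 298, 415, 349 and 479 cpm in the same order of libraries. Its log2 ratio between the fusions was -0.46, or -0.02 relative to the chromosome. Both genes therefore differed between the fusions by about as much as the median gene of their chromosome.

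Mdm2 had 133 cpm in WT, 109 in Dnmt1-null, 184 with dCas9-OGA and 155 with dCas9-OGA-D242A. It was highest in dCas9-OGA, the library with the lowest Trp53, and its log2 ratio between the fusions was 0.25. Bbc3 had 56.0, 41.8, 54.4 and 82.8 cpm in the same order, and Bax had 339, 216, 171 and 215. Both were lower with dCas9-OGA than with the D242A form, with log2 ratios of -0.60 and -0.33. Rb1 had 28.2, 19.5, 36.0 and 38.3 cpm. Its ratio between the fusions, -0.09 with a counting interval of -0.22 to 0.04, was not distinguishable from 0 at this depth.

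Among other genes of the pathway, 46 p53 targets were compared, of which 2 were up by 2-fold or more with dCas9-OGA, with a median of 0.16. Pmaip1, which encodes the BH3-only protein Noxa, had 28.3 cpm with dCas9-OGA and 6.64 with the D242A form, and Dyrk3 had 157 and 69.8. Trp53i13 had 11.2 and 21.6 cpm. None of 21 genes of p53 and its regulators reached 2-fold, with a median of 0.19. The extremes were Mdm4 (log2 ratio 0.86), Rfwd2 (0.79), Hipk2 (-0.62) and Trp53. Of 13 genes of the Rb family and E2F, only E2f2 passed 2-fold (1.47), with a median of -0.01, and the other extremes were E2f8 (0.40), E2f4 (-0.34) and Tfdp1 (-0.22). Of 16 cyclins and CDKs, only Ccnd3 did, at 834 and 231 cpm, with a median of 0.14. Of 24 replication and mitosis genes, Rrm2 (1.14) and Cenpf (1.01) did, with a median of 0.25. Of 14 genes of the Bcl2 family, Pmaip1 was higher and Bok lower by at least 2-fold (2.01 and -1.43), with a median of 0.02.

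Fibroblast markers summed to 433 cpm in WT, 304 in Dnmt1-null, 209 with dCas9-OGA and 221 with dCas9-OGA-D242A. Vim, the most abundant, had 165 cpm with dCas9-OGA and 149 with the D242A form. Of 7 compared, 3 were at least 2-fold lower in dCas9-OGA, with a median of -0.89. Acta2 had 1.01 and 6.64 cpm, and Col1a2 had 2.58 and 10.5. Of 8 ES cell markers, 2 were up by 2-fold or more with dCas9-OGA, Dppa5a (1.29) and Nanog (1.06), with a median of 0.59. Of 6 primitive endoderm markers compared, 4 were up by 2-fold or more with dCas9-OGA (median 1.13), with Sox7 at 240 and 4 counts and sums of 282 and 141 cpm. Of 6 trophoblast markers 2 were at least 2-fold lower (median -0.39), at sums of 138 and 225 cpm. Of 4 neural and mesoderm markers 3 were at least 2-fold lower and Sox1 was higher (median -1.86), at sums of 53.9 and 174 cpm. No marker of 2-cell-like cells reached 100 counts. The part of these markers in the members' differences was not tested.

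Both fusions were also set beside the WT library of the joint table, which they share, so the comparisons are not independent of each other. By the protocols, the fusion cells also differ from WT by selection and doxycycline. In dCas9-OGA against WT, 4 of the 10 genes were called, where 23.8% of 12746 genes were. Cdkn2a (log2 ratio -2.86), Cdkn2b (-1.65) and Trp53 (-1.08) were lower, and Cdkn1b (1.08) was higher. Bax, at -0.98, lay just short of 2-fold. In dCas9-OGA-D242A against WT, 0 of the 10 were called, where 20.8% of 12933 genes were. Its log2 ratios ran from -0.66 for Bax to 0.69 for Ccng1, and Cdkn2b was at -0.02. Marker lists differed in these comparisons too. With dCas9-OGA, at least 2-fold lower than WT were 5 of 7 trophoblast markers (median -2.37), 5 of 6 neural and mesoderm markers (-2.29), 4 of 4 markers of 2-cell-like cells (-3.42) and 4 of 7 fibroblast markers (-1.11). With the D242A form these were 5 of 7 (-1.79), 1 of 6 (-0.55), 4 of 4 (-2.95) and 2 of 7 (-0.22), and 5 of 7 primitive endoderm markers were lower (-1.32). Their part in the members' ratios was not tested. Relative to chromosome 11, whose medians were -0.30 and 0.21, Trp53 was at -0.79 with dCas9-OGA and at -0.84 with the D242A form.

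In the library of Dnmt1-null cells against the library of WT cells in the joint table, 0 of the 10 genes were called, where 17.4% of 12593 genes were. The median log2 ratio was -0.33 over the 10 and -0.07 over all genes. Mdm2 (-0.28), Bbc3 (-0.42), Bax (-0.65), Cdkn2b (-0.32), Cdkn1b (-0.35) and Rb1 (-0.52) were lower in Dnmt1-null, as in the replicate libraries. Trp53 was at -0.47, Cdkn1a at 0.04 and Cdkn2a at 0.56, opposite in sign to the replicate libraries. For Cdkn1a the counting interval of -0.05 to 0.13 included 0. Ccng1, not called in the replicates, was at 0.48. Of the fibroblast markers compared, 4 of 7 were at least 2-fold lower in this pair (median -1.10), as were 4 of 4 markers of 2-cell-like cells (-3.13). Unlike in the replicates, 5 of 7 trophoblast markers (-2.50) and 5 of 7 primitive endoderm markers (-1.35) were lower. In WT and Dnmt1-null the sums were 433 and 304 cpm for fibroblast, 581 and 92.7 for trophoblast and 222 and 129 for primitive endoderm markers. Vim made up 365 and 265 cpm of the fibroblast sums. Col1a1 was at 14.7 and 6.58 cpm and Acta2 at 14.4 and 2.84. The part of these marker lists in these differences was not tested.

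**Figure D3:**
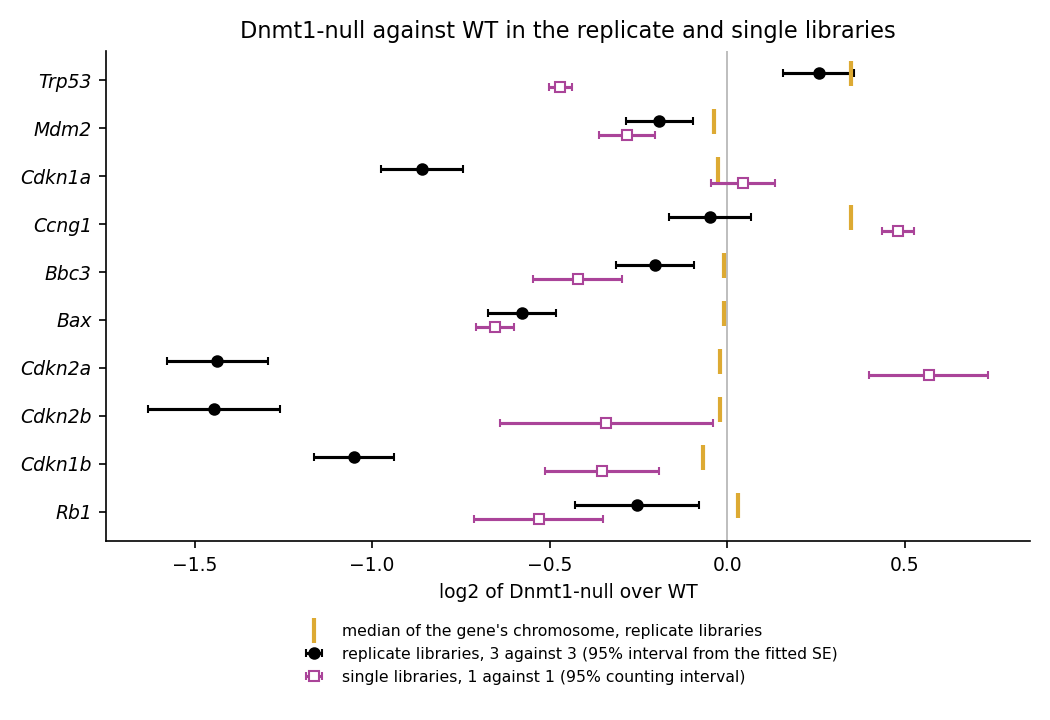
Log2 of Dnmt1-null over WT for the 10 genes, from 3 replicate libraries a group (filled circles, 95% interval from the fitted SE) and from 1 library a group (open squares, 95% counting interval, without pseudocount). Vertical marks give the median of each gene's chromosome in the replicates. Trp53, Cdkn1a, Cdkn2a and Ccng1 have their circle and square on opposite sides of 0.

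Levels were compared between genes per kilobase of exon. In WT replicates Ccng1 (181 ± 14.6) and Bax (172 ± 4.18) were highest and did not differ beyond their spread. Trp53 (94.8 ± 4.60) and Cdkn1a (93.9 ± 10.1) came next and were also within their spread. Cdkn2a (64.9 ± 8.87) and Mdm2 (61.6 ± 1.73) followed, again within their spread, then Bbc3 (29.6 ± 1.08). Cdkn1b (18.4 ± 1.09) and Cdkn2b (18.3 ± 2.56) were level with each other, and Rb1 (1.82 ± 0.0813) was far below. In Dnmt1-null, Ccng1 (175), Bax (115 ± 4.94) and Trp53 (113 ± 3.09) were highest, the last of these within the spread of Bax. Cdkn1a (51.5 ± 0.747) was now close to Mdm2 (53.9 ± 1.48), and Cdkn2a (23.6 ± 0.692) was close to Bbc3 (25.7). Cdkn1b (8.80 ± 0.447), Cdkn2b (6.48 ± 0.736) and Rb1 (1.52 ± 0.130) closed the order. In the WT replicates Cdkn2a stood at percentile 94.6 of the genes tested with an exon length, and in Dnmt1-null at percentile 84.1. Cdkn2b moved from percentile 81.0 to 61.0 and Cdkn1b from 81.0 to 66.9, while Trp53 stayed at 96.4 and 96.9.

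The promoters of the 10 genes were read as the 250 bases before each start in RefSeq (GRCm38.p6), since the Dnmt1-null cells lack the enzyme that maintains methylation of CG. Of the 10 genes, 9 matched, with 13 starts, and Rb1 did not. Of these 13 promoters, 10 held at least 10 CG, as did 37.8% of the 32841 promoters in the table, whose median was 6. The start of Cdkn2a that gives p19Arf had 40 CG, a count reached by 1.31% of promoters, and the start that gives p16Ink4a had 7, reached by 46.3%. Cdkn2b had 12, reached by 33.5%. The promoters of Cdkn2a and Cdkn2b thus differ widely in CG. Methylation itself was not measured in these files. The 3 promoters are shown 5′ to 3′ on the minus strand, with CG in capitals, up to the first base that GENCODE annotates as exon. The counts above are over 250 bases. The stretches shown for p19Arf and Cdkn2b have only 216 and 243 bases and hold fewer CG than those counts. They cover chr4:89294654-89294869 for p19Arf, chr4:89282193-89282442 for p16Ink4a and chr4:89311040-89311282 for Cdkn2b.
Cdkn2a, p19Arf start: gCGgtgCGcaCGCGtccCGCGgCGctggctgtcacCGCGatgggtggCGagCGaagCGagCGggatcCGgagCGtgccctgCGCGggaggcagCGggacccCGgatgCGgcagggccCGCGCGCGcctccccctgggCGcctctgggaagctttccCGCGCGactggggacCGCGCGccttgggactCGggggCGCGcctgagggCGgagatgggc
Cdkn2a, p16Ink4a start: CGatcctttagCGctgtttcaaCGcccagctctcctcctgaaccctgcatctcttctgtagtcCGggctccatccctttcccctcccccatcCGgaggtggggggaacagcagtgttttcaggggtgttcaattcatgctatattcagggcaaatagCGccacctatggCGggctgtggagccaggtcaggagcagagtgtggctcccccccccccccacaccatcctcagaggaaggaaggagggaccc
Cdkn2b: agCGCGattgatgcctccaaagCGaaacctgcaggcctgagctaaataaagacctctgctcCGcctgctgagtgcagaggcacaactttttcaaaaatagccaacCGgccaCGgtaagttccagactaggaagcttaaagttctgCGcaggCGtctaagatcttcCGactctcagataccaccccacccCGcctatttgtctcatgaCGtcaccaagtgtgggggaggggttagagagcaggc

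The same windows were searched for the p53 half-site, the 10-base motif that p53 binds in pairs and that reads alike on both strands. It was found in 5 of the 13 promoters, those of Trp53, Mdm2, Ccng1 and Bax and the upstream start of Cdkn1a, and in 7.13% of all promoters. The upstream Cdkn1a start held 2 half-sites within 13 bases of each other, as did 21 of all 32841 promoters. It had 2 CG, fewer than its second start with 19. The sequence is shown because Cdkn1a is the p53 target with the largest difference among the members. It covers chr17:29090729-29090975 on the plus strand, with the half-sites in capitals. A match is only a description of the letters in this window.
Cdkn1a, upstream start: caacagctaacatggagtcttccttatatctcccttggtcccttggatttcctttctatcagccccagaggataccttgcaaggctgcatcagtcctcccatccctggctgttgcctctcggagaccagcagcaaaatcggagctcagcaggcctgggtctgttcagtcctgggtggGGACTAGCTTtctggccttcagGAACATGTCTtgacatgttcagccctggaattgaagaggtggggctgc

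The genes whose pattern over the 10 libraries was most like that of Cdkn1a were Pdlim5 (Pearson r 0.99), Ccdc91 (0.98), Rusc2 (0.98), Ankrd34a (0.98) and Lynx1 (0.97). Those most like Trp53 were Cebpa (1.00), 1700017B05Rik (0.99), Mrps25 (0.98), Odc1 (0.98) and Wdr18 (0.98). These are the highest of 12785 genes compared, on log2 values centred within each table, and are given as a description. Among the 10 genes themselves, Mdm2 with Rb1 (0.91) and Cdkn2a with Cdkn2b (0.90) were the most alike.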

How the data were processed

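RNA-seq of 6 replicate libraries (3 WT, 3 Dnmt1-null) and of 4 libraries without replicates was analysed. Reads were aligned to mm10 and counted on Ensembl 87 genes with featureCounts 1.5.0, and the submitters' notes name HISAT2 2.1.0 for the replicates and TopHat2 2.0.11 for the fusion libraries. For the replicates the authors deposited a signal, reads divided by a scaled library size, whose headers did not match the columns, so the values were taken by position. For the other libraries the authors deposited counts per gene. Whole reads were recovered from the signal for 100% of values, within 0.01 read.

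After edgeR's filterByExpr, limma 3.58.1 with its trend option tested the replicates on the log2 scale, with 0.5 added to each value and Benjamini-Hochberg adjustment at 0.05 over 17297 genes. The study's methods name DESeq2. DESeq2 1.42.0 and edgeR 4.0.16 (quasi-likelihood), run on the recovered reads, were alternatives, and they called 11404 and 12252 genes. Libraries without replicates were scaled with TMM and compared without a test. A gene's exon length and position come from GENCODE M21. The scripts ran in Python 3.11.15 (matplotlib 3.10.9, SciPy 1.17.1, NumPy 2.4.6, pandas 2.3.3) and R 4.3.3.

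The members and gene lists were chosen with earlier results of these data known. Named genes were the 10 members, Dnmt1, per list up to 3 genes with the largest called rise and fall in the replicates and 2 with the largest ratios each way between the fusions, any gene of a list of 8 or fewer, and the 5 genes most like Cdkn1a and Trp53. ChIP and repeat data were not used here.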

Additional observations from a re-analysis of the deposited data

Results flagged for a closer look

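Between WT and Dnmt1-null cells, 3 genes called in the replicate libraries had the opposite sign in the libraries of the joint table. Trp53 had a log2 difference of 0.26 in the replicates and of -0.47 in the joint table. Relative to the median of chromosome 11 it was at -0.09 and -0.61. In the replicates the interval of Trp53 from the fitted SE, 0.16 to 0.36, included that median of 0.35. There Trp53 was thus not distinguishable from its chromosome. Cdkn1a had -0.86 and 0.0438, the latter with a counting interval of -0.05 to 0.13 that includes 0. Cdkn2a had -1.44 and 0.56. Ccng1, not called in the replicates, had -0.05 and 0.48. In the replicates the groups of the 3 called genes did not overlap, whereas the joint table has 1 library a group, so the difference between the tables was not tested. Of 21 genes of p53 and its regulators, 3 were at least 2-fold higher and 0 lower in Dnmt1-null than in that WT library, where 17.4% of all genes were 2-fold apart. With dCas9-OGA 6 were higher and 3 lower (23.8% of all genes), and with the D242A form 5 and 3 (20.8%). Atr had 7.10 cpm in that WT library and 76.5, 54.7 and 62.6 in Dnmt1-null, dCas9-OGA and dCas9-OGA-D242A. The tables were normalized separately, and the submitters' notes name different aligners for the replicates and for the fusion libraries. The part of either in these differences was not tested.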

How the results depend on the processing

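In the replicate libraries, 147 of 150 values of the 10 genes under an alternative kept their direction and, where a p-value was computed anew, their side of the threshold. The alternatives were edgeR, DESeq2, other pseudocounts, TMM scaling, other filters, a replicate block, each library left out and the chromosome median as reference. No p-value was computed against the chromosome median, so for that reference only the direction was compared. Ccng1 was at -0.397 against it and at -0.0484 in the main fit, and whether the former would be called was not tested. Trp53 turned to -0.0906 relative to its chromosome, by the construction of that reference. Ccng1, not called, ranged from -0.0818 to 0.0174 with 1 library left out and turned without WT replicate 1. Rb1 lost its call without Dnmt1-null replicate 1, and the cause was not tested. Without 1 library, between 11723 and 12289 genes and 8 to 9 members were called, against 12324 and 9. Same-numbered libraries of the groups correlated at 0.07, -0.02 and 0.07 in their deviations from the group means over genes, with the other pairings between -0.08 and 0.01. With the replicate block 12556 genes were called, and no member's call changed.

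Between single libraries, 34 of 276 values of the members left the counting interval of the main value, and no called member changed sign. Against the chromosome median, 3 ratios that were not called did: Bbc3 in dCas9-OGA against WT (0.14), and Cdkn1a (0.14) and Cdkn2b (0.05) in dCas9-OGA-D242A against WT. The ratio of Bbc3 also turned, to 0.02, with scaling on the median of ratios. With a pseudocount of 5 cpm the genes called numbered 683 in dCas9-OGA against dCas9-OGA-D242A, 1780 in dCas9-OGA against WT, 1484 in dCas9-OGA-D242A against WT and 1149 in Dnmt1-null against WT. With a higher floor on counts they numbered 796, 1968, 1762 and 1270, since fewer genes were compared. The members called between the fusions numbered 1 under both settings, Cdkn2a, and with 5 cpm those called in dCas9-OGA against WT numbered 2. A larger pseudocount shrinks the ratios of low genes: that of Cdkn2b between the fusions became -0.90. With 64 and 67 counts, depth limits Cdkn2a and Cdkn2b in dCas9-OGA most.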

Other observations

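The pseudogene Trp53-ps had a signal between 0.0657 and 0.221 in the replicate libraries, and 1 or 2 counts in each library of the joint table, so few reads were assigned to this copy of Trp53.

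A ratio of genes within a library needs no scaling between libraries. Cdkn1a signal per Trp53 signal was at least 0.739 in each WT replicate, and in the joint table Cdkn1a counts per Trp53 count were 0.101 in WT, 0.144 in Dnmt1-null, 0.280 with dCas9-OGA and 0.152 with the D242A form. For Mdm2 per Trp53 the joint table gave 0.151, 0.172, 0.443 and 0.274 in the same order. In both ratios dCas9-OGA was the highest of the 4 libraries and WT the lowest, while in the replicates both ratios were higher in WT than in Dnmt1-null. Trp53, the denominator of both, carries the difference of its chromosome. Between the fusions it was at -0.45 where the median of chromosome 11 was -0.43, and in the replicates at 0.26 where that median was 0.35.

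Markers of 2-cell-like cells summed to 33.4 cpm in the WT library of the joint table and to between 0.443 and 1.53 cpm in the other 3 libraries.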
